A study of Caenorhabditis elegans with 3 samples.

Results

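Fatty acid desaturases put double bonds into fatty acids. C. elegans, a free-living nematode, has 7 of them, fat-1 to fat-7, and the 5 with a probe of their own were followed here, out of 15081 genes with a symbol measured on all 3 arrays. The members were chosen by gene symbol, and a gene was used where a probe carried that symbol alone and had a value on every array. Each of fat-2, fat-3, fat-4, fat-5 and fat-7 had 1 probe, matched through its gene identifier. No probe listed for the platform carried fat-1 or fat-6 as its single symbol, so these 2 genes were not analysed here.

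The worm makes its unsaturated fatty acids from simple precursors and needs none from its food. The first double bond goes into a saturated chain. FAT-5 acts mainly on palmitic acid, and FAT-6 and FAT-7 act mainly on stearic acid to give oleic acid. FAT-2 then makes linoleic acid from oleic acid, FAT-3 and FAT-4 add further double bonds towards arachidonic and eicosapentaenoic acid, with an elongase working between them, and FAT-1 turns fatty acids of the omega-6 class into the omega-3 class. The products go into membranes, fat stores and yolk, and they are the source of signalling lipids. Much of this synthesis is known to take place in the intestine and the epidermis.

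RNA labelled as a mixed wild-type reference was in channel 1 of each array, and RNA of late young adult hermaphrodites, the self-fertile sex, was in channel 2. The adult RNA came from preparations 1, 2 and 3, which are the 3 samples of the only group; each is named below by its array. The labels give no age in hours, no strain or genotype for the adults and no make-up for the reference. They also do not state that the preparations were separate cultures. The p-values rest on how much the 3 RNA preparations varied, and this variation may be technical. For the limma p-values the variance of each gene was moderated towards that of all genes, with 6.11 prior degrees of freedom. Those p-values therefore rest only in part on a gene's own 3 values. A value is the log2 ratio of the channels, where −1 is a 2-fold difference; it was taken as likely adult over reference because the adult is the second channel, and with the other direction every sign and every "lower" or "higher" below would be turned. Such a ratio compares shares of the RNA in whole animals, so fewer cells of a type and less RNA per cell cannot be told apart, and it gives no level per gene.

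Between 19833 and 19913 of 20000 probes had a value on an array. Across 19264 genes or unnamed probes the arrays correlated at r = 0.763 to 0.900, the lower values being those with array 1 (genes are not independent replicates), and genes had a median SD over the 3 arrays of 0.27. Abundant housekeeping genes, 33 measured of 38 listed, had array medians of 1.02, 0.56 and 1.302, against array medians of 0.059, 0.010 and 0.014 over all genes, so array 2 lay below array 3 for such genes. Of the cell type markers, 17 of 17 measured germline genes, of 18 listed, were higher, beside 19.6% of all features. They were led by the germline helicase genes glh-1 at 2.89 ± 0.29 (SD, n = 3 arrays), glh-2 at 2.75 ± 0.065 and glh-4 at 2.49 ± 0.032.

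Most of the measured desaturases were lower in the late young adult than in the reference. fat-3 was far lower, fat-2, fat-4 and fat-7 were lower by 2.27-fold to 3.21-fold, and fat-5 did not pass the test. By limma against a ratio of 0, with Benjamini-Hochberg adjustment over all 19264 features and a threshold of 0.05, 4 of 5 desaturases were lower and 0 were higher; of all features, 18.8% were lower and 19.6% were higher. The same 4 genes were lower by at least 2-fold, which held for 8.79% of all features. The median over the 5 desaturases was −1.28, beside 0.036 over all features. Each of the 5 was below 0 on all 3 arrays, as were 30.1% of all features. The shares of all features called lower and higher are the background for the counts of each list below.

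**Figure D1:**
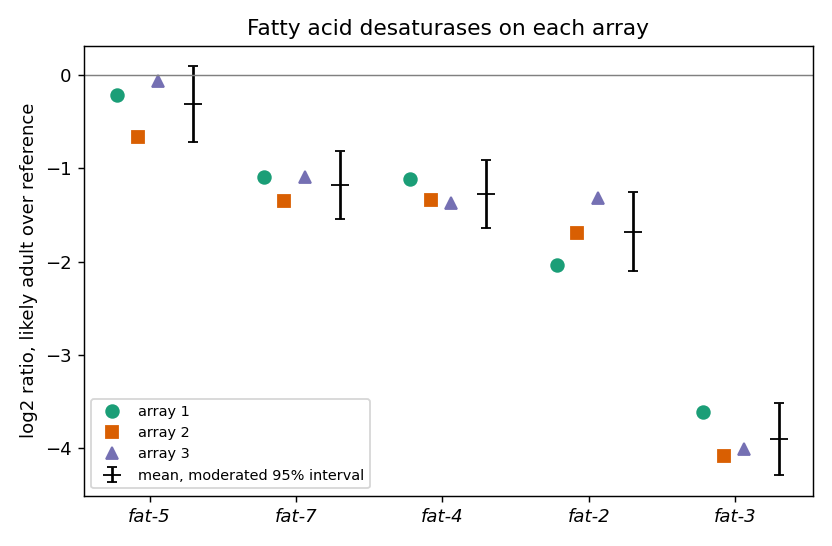
The log2 ratio (vertical axis, likely adult over reference) of each measured desaturase is plotted for arrays 1, 2 and 3, with the mean and its moderated 95% confidence interval at the right of each gene. fat-3 lies near −4 on each array, fat-2, fat-4 and fat-7 lie between −2.04 and −1.09, and the interval of fat-5 spans 0.

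The first double bond is made by FAT-5, FAT-6 and FAT-7. In log2 ratio fat-7, whose product is a stearic acid desaturase, lay at −1.099 on array 1, −1.35 on array 2 and −1.09 on array 3. The 3 values lay close together and all below −1, with a mean of −1.18 ± 0.15 (SD, n = 3), a 95% confidence interval of −1.54 to −0.82 and a limma adjusted p of 0.000743. This is a 2.27-fold difference in the share of the RNA. fat-6 and fat-7 are close copies with overlapping functions, and the probe sequences were not used here, so the part of fat-6 RNA in this signal was not tested.

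fat-5, which encodes the palmitic acid desaturase, lay at −0.22 on array 1, −0.66 on array 2 and −0.063 on array 3. All 3 values were below 0, but array 2 stood apart from the other two, and the mean of −0.31 ± 0.31 (SD, n = 3) did not pass (limma adjusted p = 0.2). Its 95% confidence interval of −0.72 to 0.09 does not reach a 2-fold difference in either direction. Array 2 was also the array on which the housekeeping genes lay lowest; the value of fat-5 on array 3 minus that on array 2 was 0.60, the median of the same difference over the housekeeping genes was 0.71, and the part of that shift in the value of fat-5 was not tested.

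The ratio of fat-5 exceeded that of fat-7 by 0.88 on array 1, 0.69 on array 2 and 1.03 on array 3. The difference of the log2 ratios was 0.87 ± 0.17 (SD, n = 3), in the same direction on each array, so the 2 genes of the first step differed by 1.82-fold in how far the adult lay from the reference. An exact two-sided sign-flip permutation test gave p = 0.25, which is the smallest that 3 arrays allow, and 0.25 after adjustment over the 2 pairs of related desaturases that could be compared, of 5 planned.

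FAT-2 makes linoleic acid, the entry to all polyunsaturated fatty acids of the worm. Its gene lay at −2.04 on array 1, −1.69 on array 2 and −1.31 on array 3. The 3 values were spread more widely than those of the other desaturases, with an SD larger than that of 68.5% of all features, yet none came near 0. The mean was −1.68 ± 0.36 (SD, n = 3), with a 95% confidence interval of −2.10 to −1.26 and a limma adjusted p of 0.00032. This is a 3.21-fold difference. fat-2 was lowest on array 1, whereas fat-3 and fat-4 were least low there.

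fat-3 encodes the enzyme that adds a double bond to linoleic and alpha-linolenic acid, the step by which the long polyunsaturated chains begin. Array 1 gave a log2 ratio of −3.61, array 2 gave −4.08 and array 3 gave −4.01. All 3 values were far below those of the other desaturases, and the lowest value of any other desaturase on any array was the −2.04 of fat-2. The mean was −3.90 ± 0.26 (SD, n = 3), with a 95% confidence interval of −4.29 to −3.51 and a limma adjusted p of 3.11e-05. This is a 14.9-fold difference. fat-3 had the 17th lowest mean of all 19264 features, which would be the 17th highest with the ratio turned.

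**Figure D2:**
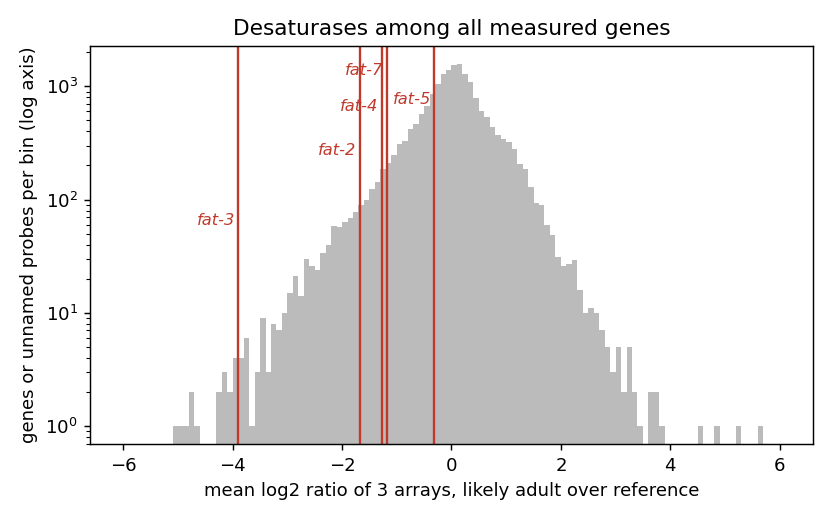
The grey bars count genes or unnamed probes by their mean log2 ratio over 3 arrays (horizontal axis, bins of equal width; the vertical axis is logarithmic), and red lines mark the desaturases. fat-3, at −3.90, lies in the sparse lower tail, whereas fat-5, at −0.31, lies within the main body of the distribution.

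fat-4 encodes the enzyme after the elongation step, which makes arachidonic and eicosapentaenoic acid. It lay at −1.11 on array 1, −1.34 on array 2 and −1.38 on array 3. These values had the smallest spread of the 5 genes, with a mean of −1.28 ± 0.14 (SD, n = 3), a 95% confidence interval of −1.64 to −0.92 and a limma adjusted p of 0.000525. This is a 2.43-fold difference.

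Although fat-3 and fat-4 act in the same branch of the pathway, they lay far apart. The log2 ratio of fat-3 minus that of fat-4 came to −2.49 on array 1, −2.74 on array 2 and −2.63 on array 3. The mean difference was −2.62 ± 0.12 (SD, n = 3), which is 6.16-fold. The difference was about the same size on each array, and the exact sign-flip permutation test again gave the smallest p that 3 arrays allow, 0.25 (0.25 adjusted over the 2 pairs).

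In order of their mean log2 ratios the genes ran fat-5, fat-7, fat-4, fat-2 and fat-3. The neighbours fat-7 and fat-4 differed by 0.098 ± 0.16 and changed places on array 2, and fat-4 and fat-2 differed by 0.40 ± 0.49 and changed places on array 3, so neither of these pairs was separated beyond its spread. fat-7 lay above fat-2 on each array, by 0.94, 0.34 and 0.22 (0.50 ± 0.38, SD, n = 3). fat-2 and fat-3 differed by 2.22 ± 0.58, with fat-3 lower on each array. fat-5 was above each other desaturase on all 3 arrays and fat-3 below each of them, whereas the place of fat-4 next to fat-7 and fat-2 varied between arrays.

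fat-3 and fat-4 are next to each other on chromosome IV, and fat-1 is next to fat-2 on the same chromosome (gene order from RefSeq's WBcel235 table, used for names and neighbours). The genes around the pair did not share one direction. Beyond fat-4, T13F2.2 lay at 0.24 ± 0.27 (adjusted p = 0.3), pis-1 was higher at 1.05 ± 0.33 and T13F2.4 was lower at −0.60 ± 0.44. Beyond fat-3, dct-15 was lower at −0.80 ± 0.56, egl-20, a Wnt ligand gene, was lower at −2.003 ± 0.93, and catp-6, an ATPase gene, was higher at 1.11 ± 0.29 (SD, n = 3 arrays; adjusted p by limma). No gene within 3 places of the pair was as low as fat-3. Beside fat-2, far-6 at −0.30 ± 0.45, pqn-74 at −0.30 ± 0.51 and glr-9 at −0.34 ± 0.27 did not pass. Over the 17 measured genes within 3 places of any of the 5 desaturases, 3 were lower, 2 were higher and 12 did not pass. Of all features, 18.8% were lower and 19.6% were higher, so calls were not more frequent among these genes. The neighbours were named by their place on the chromosome after the values of the desaturases were seen.

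**Figure D3:**
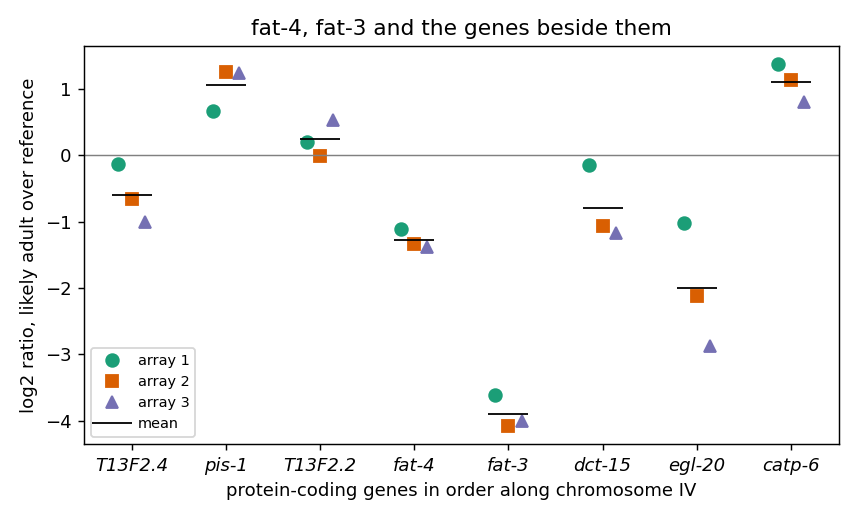
The log2 ratio (vertical axis) on arrays 1, 2 and 3 and the mean (bar) are plotted for fat-4, fat-3 and 3 protein-coding genes to either side, in their order along chromosome IV (horizontal axis, not to distance). fat-3 lies lowest, near −4, between fat-4 at −1.28 and dct-15 at −0.80, and pis-1 and catp-6 lie above 1.

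The other genes of fatty acid synthesis did not follow the desaturases. Of 5 listed genes tied to fatty acid synthesis, 3 were higher and 0 were lower, with a median of 1.34. The 3 were acly-1 and acly-2, which encode ATP-citrate lyases, and pod-2, which encodes acetyl-CoA carboxylase. The gene of the committed step, pod-2, lay at 1.28 on array 1, 1.02 on array 2 and 1.76 on array 3. It was above 1 on each array, at a mean of 1.36 ± 0.38 (SD, n = 3; limma adjusted p = 0.000844). acly-1 was higher at 1.34 ± 0.54 and acly-2 at 1.43 ± 0.41. With arrays centred on the housekeeping genes, pod-2, acly-1 and acly-2 lay at 0.39, 0.38 and 0.47 and no longer passed (limma adjusted p = 0.218, 0.231 and 0.141). Relative to the median of all genes they then lay at 1.32, 1.31 and 1.39. Fatty acid synthase, fasn-1, lay at 0.54 ± 0.46 (limma adjusted p = 0.067) and passed without array 3 (0.78, adjusted p = 0.0228) and with trended and robust moderation (0.0485), and the malonyl-CoA decarboxylase gene mlcd-1 lay at 0.15 ± 0.27 (adjusted p = 0.517).

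Elongases, which lengthen the chains that desaturases work on, were split. Of 9 listed, 7 were measured, of which 3 were higher, 1 was lower and 3 did not pass, with a median of 0.46. Of all features, 19.6% were higher and 18.8% were lower. The gene of the elongase that acts between FAT-3 and FAT-4, elo-1, lay at 0.93 on array 1, 0.28 on array 2 and 0.70 on array 3. Its values were all above 0, unlike those of the desaturase genes on either side of it in the pathway, and its mean of 0.64 ± 0.33 passed narrowly (SD, n = 3; limma adjusted p = 0.023). elo-2, which acts on palmitic acid and on polyunsaturated chains, was higher at 0.57 ± 0.40 (adjusted p = 0.0442) and elo-3 at 0.61 ± 0.35 (adjusted p = 0.0303). None of these 3 calls held without array 1, where the adjusted p-values were 0.0569, 0.0768 and 0.0721; elo-1 and elo-2 were also lost without array 3 (0.094 and 0.339), elo-3 without array 2 (0.0812), and centring arrays on the housekeeping genes, which moved the median of all genes to −0.93, put all 3 ratios below 0. Relative to the median of all genes they then lay at 0.60, 0.53 and 0.57.

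elo-4 was the exception among the elongases. It lay at −2.67 on array 1, −3.72 on array 2 and −3.84 on array 3, far below the other elongases on each array, with a mean of −3.41 ± 0.64 (SD, n = 3; limma adjusted p = 7.05e-05). elo-5 and elo-6, which make the branched-chain fatty acids of the worm, lay at 0.46 ± 0.32 and 0.15 ± 0.32 and did not pass (adjusted p = 0.0737 and 0.543), and elo-7 lay at −0.24 ± 0.13 (adjusted p = 0.269). Of the enzymes that work with elongases, hpo-8, the hydroxyacyl-CoA dehydratase gene, was the 1 measured of 3 listed, at −0.41 ± 0.31 (adjusted p = 0.105; 0.0466 without array 1 and 0.0232 with array weights).

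Desaturases take electrons from cytochrome b5, which is in turn reduced by its reductase. Of 5 listed genes of electron supply, 1 was lower and 1 was higher, with a median of 0.042. This is close to the shares over all features, 18.8% lower and 19.6% higher. cytb-5.2, a cytochrome b5 gene, lay at −1.48 on array 1, −1.84 on array 2 and −1.63 on array 3. These values overlapped those of fat-2 and lay below those of fat-7 and fat-4 on each array, and the mean was −1.65 ± 0.18 (SD, n = 3; limma adjusted p = 0.000196). The other cytochrome b5 gene, cytb-5.1, lay at −0.33 ± 0.27 and did not pass (adjusted p = 0.17). Among the reductase genes, hpo-19 was higher at 0.52 ± 0.15 (adjusted p = 0.0309; 0.0869 without array 2, 0.228 without array 3), T05H4.4 lay at 0.042 ± 0.22 (adjusted p = 0.865), and emb-8, which encodes cytochrome P450 reductase, lay at 0.21 ± 0.38 (adjusted p = 0.416; 0.0465 without array 1).

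**Figure D4:**
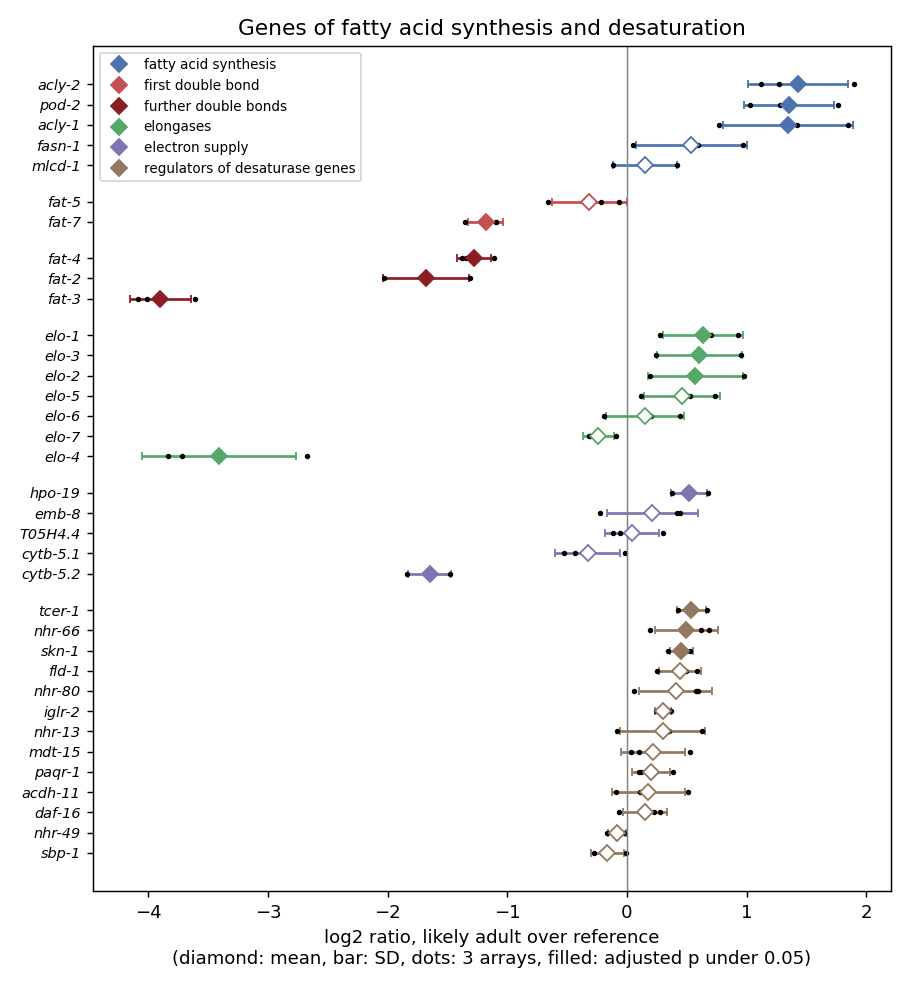
Each row is a gene and the horizontal axis is its log2 ratio (likely adult over reference), with dots for the 3 arrays, a diamond for the mean and a bar for the SD; filled diamonds passed at an adjusted p under the threshold. The desaturases, elo-4 and cytb-5.2 lie to the left, acly-1, acly-2 and pod-2 lie to the right at 1.34 to 1.43, and the regulators lie between −0.16 and 0.54.

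The genes listed as regulators of the desaturase genes had mean ratios closer to 0 than fat-2, fat-3, fat-4 and fat-7. Of 14 listed, 13 were measured, with ratios from −0.16 to 0.54 and a median of 0.30. By limma 0 were lower (0 also at an unadjusted p under 0.05) and 3 were higher, beside 18.8% and 19.6% of all features. The sterol response factor gene sbp-1 lay at −0.16 ± 0.14 and nhr-49, the nuclear receptor gene known to promote expression of the stearic acid desaturases, at −0.085 ± 0.074. The confidence interval of nhr-49 ran from −0.44 to 0.27, and those of other regulators reached higher, up to 0.89 for tcer-1. With arrays centred on the housekeeping genes 8 regulators were lower and 0 higher, nhr-49 at −1.05 (adjusted p = 0.00109) and sbp-1 at −1.13 (0.000447), which is −0.12 and −0.20 relative to the median of all genes. The Mediator subunit gene mdt-15, which works with both, lay at 0.22 ± 0.27, and the nuclear receptor genes nhr-80 and nhr-13 lay at 0.41 ± 0.31 and 0.30 ± 0.36; none of these passed.

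The 3 regulators that were higher were the nuclear receptor gene nhr-66 at 0.50 ± 0.27 (limma adjusted p = 0.0487), the stress response factor gene skn-1 at 0.45 ± 0.095 (adjusted p = 0.0473) and tcer-1 at 0.54 ± 0.12 (adjusted p = 0.0257). All 3 were lost without array 2 or without array 3 (adjusted p of 0.0926 to 0.281), skn-1 also without array 1 (0.0546), and all 3 ratios were below 0 with arrays centred on housekeeping genes, where they lay at 0.46, 0.42 and 0.50 relative to the median of all genes. daf-16, the FOXO factor gene, lay at 0.15 ± 0.18 and acdh-11, a gene that restrains fat-7, at 0.18 ± 0.30. Of the membrane fluidity genes, paqr-1 lay at 0.20 ± 0.16, iglr-2 at 0.30 ± 0.064 and fld-1 at 0.44 ± 0.17 (adjusted p = 0.36, 0.158 and 0.059); fld-1 passed without array 1 (adjusted p = 0.023), with array weights (0.0109) and with trended and robust moderation (0.048).

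Genes for the use of the products had no common direction. Among 18 measured genes of acyl transfer to lipids, 4 were higher and 4 were lower, with a median of 0.22. This is close to the shares over all features, 19.6% higher and 18.8% lower. The acyltransferase genes acl-12 at −1.39 ± 0.60, acl-8 at 1.09 ± 0.12 and acl-6 at 0.94 ± 0.18 were farthest from 0. Without array 3, 3 were higher and 2 were lower. Of 6 genes of fat storage and release, 2 were higher, the lipid droplet gene plin-1 at 0.64 ± 0.31 and the lipase gene atgl-1 at 0.62 ± 0.27, and 0 were lower; plin-1 was lost without array 2 (adjusted p = 0.0505), and atgl-1 without array 2 or array 3 (0.0671 and 0.181). Of 7 genes of the epoxidation of polyunsaturated fatty acids, 3 were lower and 0 were higher, with a median of −0.21. The cytochrome P450 gene cyp-33E1 lay at −1.31 ± 0.17, and the epoxide hydrolase genes ceeh-1 and ceeh-2 lay at −0.61 ± 0.22 and −0.52 ± 0.15; without array 2, ceeh-1 and ceeh-2 were lost (adjusted p = 0.0537 and 0.107), and ceeh-2 also without array 3 (0.231). The dihydroceramide desaturase homologues ttm-5 and F33D4.4, which act on sphingolipids, lay at −0.17 ± 0.012 and 0.076 ± 0.26 and did not pass.

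Over these 9 lists together, 61 of 71 genes were measured, of which 16 were higher and 9 were lower, beside 19.6% and 18.8% of all features. The median was 0.20, and no gene of the lists lay below fat-3; elo-4 came nearest. Without array 2 the counts were 10 and 6, and without array 3 they were 9 and 6.

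Markers of the tissues known to make these fatty acids moved in different directions, where 19.6% of all features were higher and 18.8% were lower. Of 16 intestine markers, 7 were higher and 0 were lower, with array medians of 0.77, 0.44 and 0.48 and a list median of 0.53. pgp-1 lay at 1.80 ± 0.25, pho-1 at 1.43 ± 0.42 and vha-6, a proton pump gene of the intestine, at 1.35 ± 0.35. The gut GATA factor gene elt-2, named after its value was seen, lay at −0.57 ± 0.58 and did not pass (limma adjusted p = 0.0773). Of 15 epidermis markers, 3 were higher and 8 were lower, with array medians of −0.45, −0.80 and −0.82. The collagen gene rol-6 and the hedgehog-related gene wrt-10 lay at −3.76 ± 0.85 and −3.43 ± 0.91, and the adult collagen gene col-19 at 2.75 ± 0.50. Epidermis markers were called on both sides of 0. Intestine markers also had ratios on both sides, but none of those below 0 passed. A list median therefore does not give the share of a tissue in the RNA. The part of tissue shares in the desaturase ratios was not tested.

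Neuron markers were lower in 7 of 10 and higher in 0, with a median of −0.84, led by ida-1 at −2.73 ± 0.36, unc-25 at −2.11 ± 0.45 and snt-1 at −2.06 ± 0.70. Of 8 body wall muscle markers, 1 was higher and 3 were lower, with unc-52 at 1.53 ± 0.58, tni-1 at −0.96 ± 0.27 and hlh-1 at −0.81 ± 0.051. Among the housekeeping genes 23 were higher and 3 were lower, led by inf-1 at 1.88 ± 0.28, hsp-1 at 1.63 ± 0.33 and tbb-1 at 1.496 ± 0.37.

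The genes with a symbol whose 3 log2 ratios lay closest to those of each desaturase were found by Euclidean distance over the 3 arrays, a description that 3 values per gene leave coarse. For fat-3 they were ora-1 at −3.93 ± 0.52 (distance 0.374), cup-16 at −4.10 ± 0.35 (0.386) and F57H12.6 at −4.08 ± 0.26 (0.467). For fat-2 they were the glutathione peroxidase gene gpx-6 (0.195), C01A2.2 (0.204) and the histone gene his-71 (0.206). For fat-4 they were F57A8.1 (0.0605), tep-1 (0.0873) and the neuropeptide-like gene nlp-2 (0.12), and for fat-7 they were F34H10.3 (0.108), the homeobox gene zag-1 (0.111) and the paxillin gene pxl-1 (0.118). For fat-5 they were the hedgehog-related gene grd-10 (0.0623), F40A3.3 (0.0792) and the bestrophin gene best-22 (0.0796). Among the desaturases themselves the closest pair was fat-4 and fat-7, at a distance of 0.285, and the farthest was fat-3 and fat-5, at 6.23.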

How the data were processed

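The authors deposited log2 ratios, 1 for each probe on each array. The scale was settled from the numbers themselves: taken as powers of 2, 99.98% of them fell on steps of 0.001 (to within 0.01 of a step). Background correction, normalization and filters are not given in the sources used here, no spot intensities were used, and the number of arrays limits the precision. Of 20000 probes, 15655 had 1 symbol, 198 had several and 4147 were unlisted. Names came through gene identifiers of RefSeq's WBcel235 table for 15569 probes, through its accessions for 7 and from the platform's own symbol for 79. Probes of a symbol were averaged. The test against 0 was limma 3.58.1's (R 4.3.3, intercept, eBayes, Benjamini-Hochberg over 19264 features, threshold 0.05), and the code was run on simulated data. That simulation had independent noise and far fewer changed genes than were called here, so it does not bear on these calls. Because the reference is common to the arrays, the test leaves out its spread, and an effect of the channel cannot be told apart from a difference. The members and lists were chosen with earlier results of these data known. The text names all desaturases, every measured elongase, elongation partner, synthesis, electron supply, regulator and dihydroceramide desaturase gene, the 3 called genes farthest from 0 in each other list, and the 3 closest genes per desaturase. Alternatives were each array left out, median, quantile and housekeeping centring, array weights, other variance moderation, a value on 2 arrays, and single probes.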

Additional observations from a re-analysis of the deposited data

How the results depend on the processing

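All 5 desaturases kept a ratio below 0 under the 11 alternatives run. With 1 array left out, fat-2 lay at −1.86 to −1.50, fat-3 at −4.05 to −3.81, fat-4 at −1.36 to −1.23, fat-5 at −0.44 to −0.14 and fat-7 at −1.22 to −1.095, and fat-5 did not pass in any of the 3. Each desaturase had 1 probe with a value on every array, so single probes and a value on 2 arrays left its ratios unchanged. Other variance moderation left the mean ratios unchanged too, and housekeeping centring lowered every gene. With 3 arrays, and also with 1 array left out, a pass rests largely on the moderated variance. Counting all of these, fat-2, fat-3, fat-4 and fat-7 passed under 10 of 11 alternatives. The exception was a one-sample test without moderation, with fat-2 at −1.68 (adjusted p = 0.101), fat-3 at −3.90 (0.0765), fat-4 at −1.28 (0.0811) and fat-7 at −1.18 (0.0828). That test has the 3 values of a gene alone, and it called 0 genes higher and 0 lower, in the lipid lists and over all genes, against 3769 and 3624 by limma; before adjustment it had 6188 genes under 0.05, with 4 of the 5 desaturases among them, where limma had 8985.

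Centring on the housekeeping genes, which lay well above 0, moved the median of all genes to −0.93, and calls then shifted with it, to 408 higher and 13955 lower over all genes and to 0 and 39 in the lipid lists; fat-5 passed at −1.28 (adjusted p = 7.01e-05). Relative to that median, fat-3 lay at −3.94, fat-2 at −1.72, fat-4 at −1.31, fat-7 at −1.22 and fat-5 at −0.35. Under this centring the ratios that went below 0 were −0.33 for elo-1, −0.39 for elo-2, −0.36 for elo-3, −0.50 for elo-5, −0.81 for elo-6, −0.42 for fasn-1, −0.81 for mlcd-1, −0.44 for hpo-19, −0.75 for emb-8, −0.92 for T05H4.4, −0.89 for F33D4.4, −0.74 for mdt-15, −0.55 for nhr-80, −0.66 for nhr-13, −0.46 for nhr-66, −0.81 for daf-16, −0.51 for skn-1, −0.42 for tcer-1, −0.78 for acdh-11, −0.76 for paqr-1, −0.66 for iglr-2, −0.52 for fld-1, −0.026 for acl-6, −0.33 for plin-1 and −0.34 for atgl-1. All 25 of these lay above the median of all genes, by 0.0060 to 0.90. Genes already below 0 that then passed were sbp-1 at −1.13, nhr-49 at −1.05, ttm-5 at −1.13, elo-7 at −1.20, hpo-8 at −1.37 and cytb-5.1 at −1.29. pod-2, acly-1 and acly-2 stayed above 0 and no longer passed (adjusted p = 0.218, 0.231 and 0.141).

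With each array centred on its median, elo-2, nhr-66 and skn-1 no longer passed (adjusted p = 0.055, 0.0645 and 0.0568), and nhr-66 did not pass with quantile normalization (0.0577) or with genes measured on at least 2 arrays (0.0521). With 1 array left out, 9 to 14 lipid genes were higher and 6 to 10 lower, and over all genes 2676 to 4274 were higher and 2676 to 4184 lower. F33D4.4 ran from −0.0078 to 0.23 and T05H4.4 from −0.086 to 0.12, on both sides of 0. The differences fat-5 minus fat-7 (0.79 to 0.96) and fat-3 minus fat-4 (−2.69 to −2.56) kept their direction. No pairing of samples between groups was possible because the series has 1 group. Each ratio already compares adult and reference RNA on the same array.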
